A study of Homo sapiens with 24 samples.

Results

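An intron of CLCN5 on the human X chromosome carries a run of miRNA hairpins that starts with MIR532 and ends with MIR502. Described here are 10 mature miRNAs of that run, namely miR-532-5p (MIMAT0002888), miR-532-3p (MIMAT0004780), miR-188-5p (MIMAT0000457), miR-500a-3p (MIMAT0002871), miR-362-5p (MIMAT0000705), miR-362-3p (MIMAT0004683), miR-501-5p (MIMAT0002872), miR-501-3p (MIMAT0004774), miR-660-5p (MIMAT0003338) and miR-502-3p (MIMAT0004775). They were chosen by position, in a window of the plus strand of chromosome X around this run (hg38), and by name, and the choice of names was made with measured values of these libraries known. The window held 16 of the 2652 mature miRNAs of the deposited tables, so 10 of 16 were members. The member with the fewest reads was miR-501-5p, with 398 counts over 24 libraries. Of the 6 products left out, miR-500a-5p had 2102 counts and miR-500b-5p 2106, and the next was miR-502-5p with 288, so abundance alone does not separate the members from the rest. Since the choice used these data, the members' counts and medians below describe them and are no independent support for a direction.

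Small RNA was sequenced from SBC-3, a human small cell lung cancer line, after transient knockdown of SFPQ, NONO or NEAT1. Cells were reverse transfected with 10 nM of oligonucleotide in Lipofectamine RNAiMAX and collected 72 h later, and 100 ng of RNA with added spike-in oligonucleotides entered each QIAseq library. The 8 groups had 3 libraries each. SFPQ was knocked down with the small interfering RNAs (siRNAs) siSFPQ-2 or siSFPQ-3 and NONO with siNONO-3 or siNONO-4, each set against the control siRNA siCtrl in cells that the labels give as WT. NEAT1 was knocked down with the antisense oligonucleotides (ASOs) ASO-NEAT1-1047 or ASO-NEAT1-1473, set against the control ASO-Ctrl, also given as WT. All groups share 1 cell line and the same transfection, and the small RNA tables do not measure how far SFPQ, NONO or NEAT1 itself fell.

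Most miRNAs are cut in the nucleus by Drosha from a primary transcript as a hairpin, and Dicer then releases a duplex with a product from the 5′ arm (5p) and from the 3′ arm (3p). One arm is usually loaded into an Argonaute protein, where bases 2 to 8, the seed, lead it to target mRNAs. CLCN5 encodes the chloride and proton exchanger ClC-5 of kidney endosomes, and its loss causes Dent disease. SFPQ and NONO are related RNA-binding proteins of the paraspeckle, a nuclear body built on the long noncoding RNA NEAT1, and they have been reported to bind primary miRNA transcripts in HeLa cells.

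Mature sequences of 9 of the 10 members were matched by position in RefSeq (GRCh38.p14). They are shown 5′ to 3′ on the plus strand of chromosome X, in genomic order, with the seed in capitals, because the seeds and the shared stretches decide which members can be told apart.
miR-532-5p: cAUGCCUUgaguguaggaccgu
miR-532-3p: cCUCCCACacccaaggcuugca
miR-188-5p: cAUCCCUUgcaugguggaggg
miR-500a-3p: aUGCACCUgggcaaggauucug
miR-362-5p: aAUCCUUGgaaccuaggugugagu
miR-362-3p: aACACACCuauucaaggauuca
miR-501-5p: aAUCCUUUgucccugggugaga
miR-501-3p: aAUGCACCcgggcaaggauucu
miR-502-3p: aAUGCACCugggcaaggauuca

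The seed AUGCACC is common to miR-501-3p and miR-502-3p. The seed AUCCUUG of miR-362-5p recurs in miR-500b-5p, a product of the same window that is no member. Among tested miRNAs outside the window that had a matched sequence, none carried the seed of any of the 9 members shown. miR-500a-3p and miR-502-3p share the 20-base run augcaccugggcaaggauuc, which starts at base 1 of miR-500a-3p and at base 2 of miR-502-3p, so their seeds are offset by 1 base. Their counts differed by at most 4 in any of the 24 libraries and were equal in 5, so these products cannot be separated in these tables. Both stay counted among the 10 members below. In the same way miR-500a-5p and miR-500b-5p share 18 bases, and their counts differed by at most 1.

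All 16 products lay inside CLCN5 (GRCh38, chromosome X, 49922615 to 50099235, plus strand, GENCODE v29). They fell in intron 2 or 3 of the 3 CLCN5 transcripts, of 9 annotated, that span them, and none touched an exon. miR-532-5p (50003167 to 50003188) and miR-532-3p (50003204 to 50003225) come from the first hairpin, and miR-188-5p (50003517 to 50003537) from the next. The middle group holds miR-500a-3p (50008482 to 50008503), miR-362-5p (50008968 to 50008991), miR-362-3p (50009005 to 50009026), miR-501-5p (50009735 to 50009756) and miR-501-3p (50009772 to 50009793). At the far end lie miR-660-5p (50013256 to 50013277) and miR-502-3p (50014649 to 50014670).

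The deposited values are whole-number read counts per miRNA, and the libraries held between 2038382 and 4279644 miRNA counts. Levels are given in CPM, the count scaled to the library size after edgeR's trimmed mean of M-values (TMM) adjustment. The TMM factors were 1.09 to 1.36 in the 6 siSFPQ libraries and 0.846 to 1.03 in the other 18. Among the 3 siCtrl libraries, replicate 1 stood apart. Its counts differed from those of replicates 2 and 3 with a chi-square per degree of freedom of 776 and 753, against 41.7 between replicates 2 and 3, so results set against siCtrl are also given without it where that changes them. It was not the only such library. ASO-NEAT1-1047 replicate 3 had 540 and 356, against 60.2 between replicates 1 and 2. For siNONO-4 replicate 1 the values were 254 and 340, against 43.9 between replicates 2 and 3. Of the markers of small cell lung cancer and neuroendocrine cells, miR-9-5p (46767 to 106856 CPM) and miR-7-5p (6849 to 19907 CPM) were abundant and miR-375-3p was low (0.257 to 8.55 CPM). The liver miRNA miR-122-5p was at 0 in all 24 libraries and the myeloid miRNA miR-223-3p at 0 in 16. The other markers of blood, muscle, vessel and stroma that were found had counts in every library. Among them were miR-142-3p (23.5 to 151.5 CPM), miR-1-3p (78.0 to 552.5 CPM) and miR-126-3p (543.6 to 1534 CPM).

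All 10 members passed the filter on low counts, which kept 626 miRNAs. miR-660-5p, which has been reported to target MDM2 in human lung cancer cells, was the most abundant member, with a mean of 307 CPM over the 24 libraries and rank 130 of 626. miR-532-5p came next with 206 CPM (rank 155). Both are far above the other members, whose means were 38.3 CPM for miR-500a-3p, 37.9 for miR-502-3p, 21.3 for miR-362-5p, 16.4 for miR-188-5p, 12.2 for miR-501-3p, 8.67 for miR-362-3p, 8.12 for miR-532-3p and 5.20 for miR-501-5p. The members are between 21 and 24 bases long, so CPM needs no correction for length. The library ranges of neighbours in this order overlapped, except between miR-532-5p (95.2 to 350.3 CPM) and miR-500a-3p (19.8 to 62.2 CPM). The products miR-660-5p and miR-532-5p together made up 72.4% to 86.1% of the cluster's summed CPM in every library.

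The summed CPM of the cluster, with miR-502-3p left out because it repeats the reads of miR-500a-3p, was lowest in both SFPQ knockdown groups. It was 358 ± 47.5 with siSFPQ-2 and 328 ± 68.5 with siSFPQ-3 (SD, n = 3 each). The sum was 644 ± 29.5 with siNONO-3, 769 ± 108 with siNONO-4 and 630 ± 125 with siCtrl. It was 769 ± 36.8 with ASO-NEAT1-1047, 650 ± 68.7 with ASO-NEAT1-1473 and 838 ± 95.3 with ASO-Ctrl. Every siSFPQ library, from 269.6 to 403 CPM, lay below every other library on this TMM scale, of which siCtrl replicate 3 was lowest with 511 CPM. On other scales the sums overlapped. Per library total, they were 341 to 518 CPM in the siSFPQ libraries and 455 to 846 CPM in the rest. Per 1000 spike-in counts, they were 9.36 to 21.9 counts in the siSFPQ libraries and 20.3 to 32.7 counts in the rest.

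**Figure D1:**
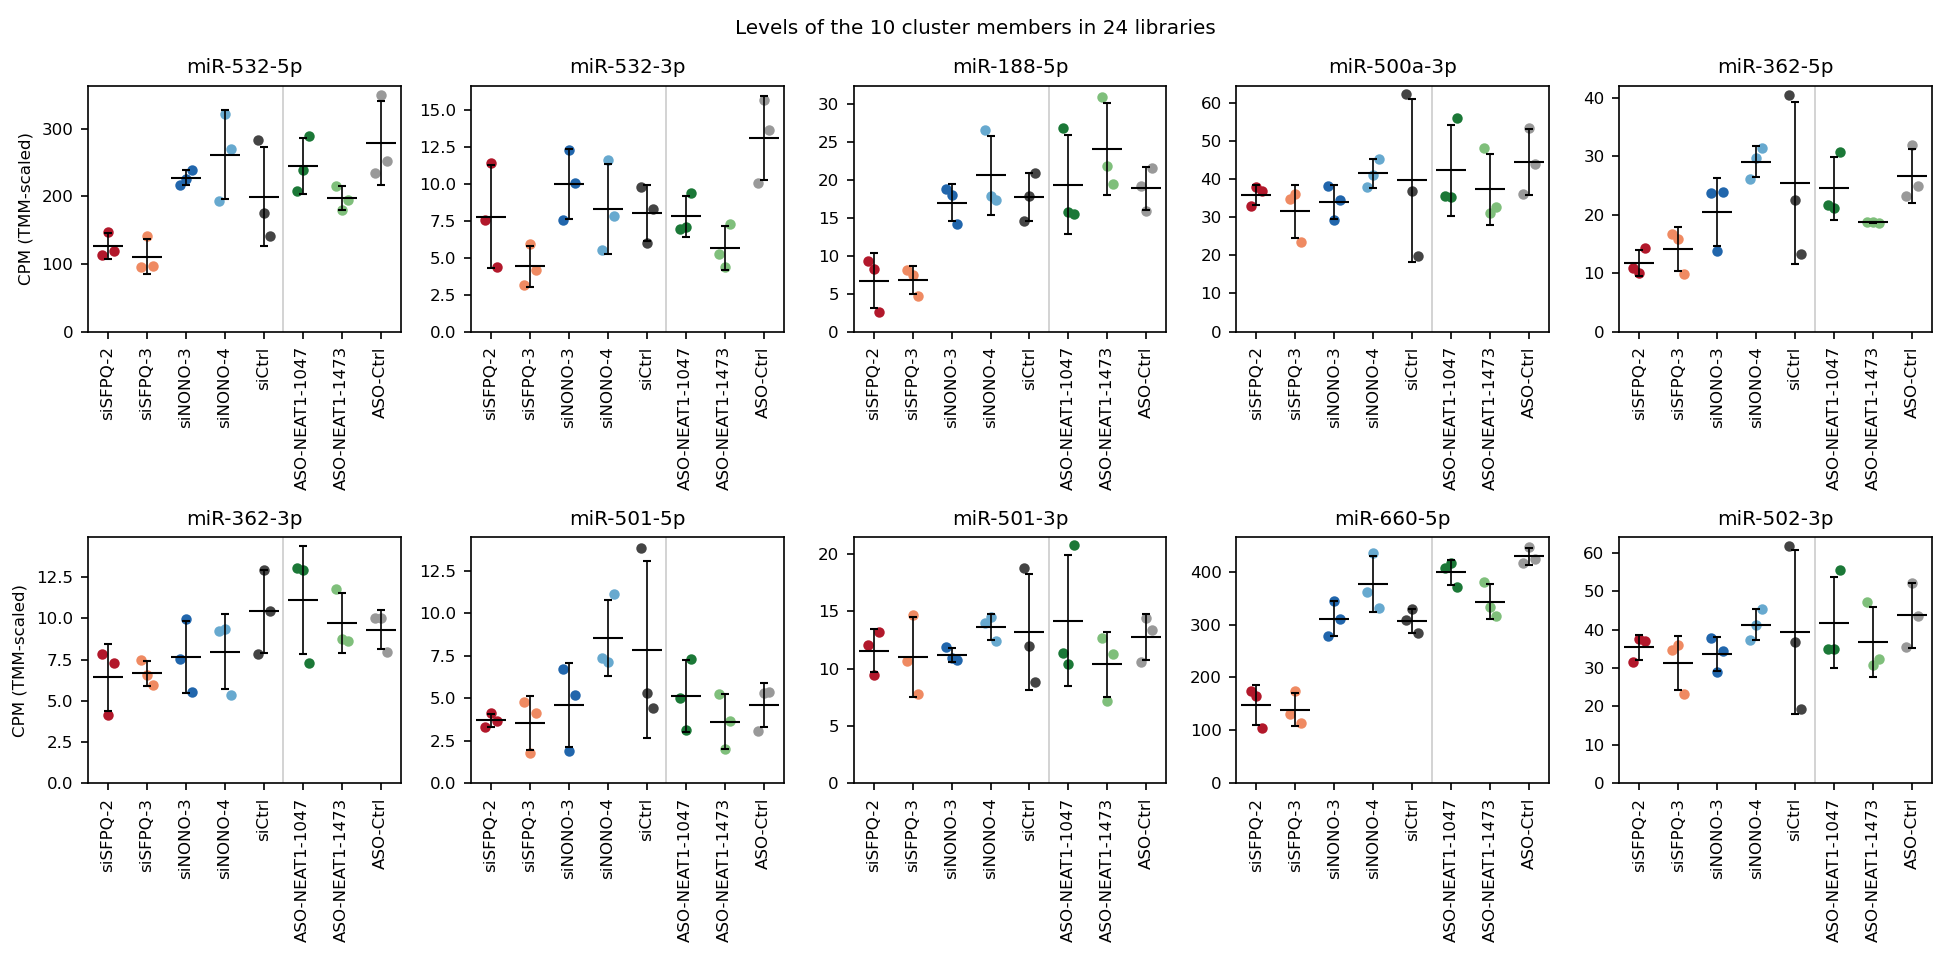
Level of each of the 10 members (CPM on a linear axis from 0, 1 panel per member with its own scale) in the 24 libraries by group, with bars for the mean ± SD of 3 libraries. miR-660-5p and miR-188-5p are lower in all 6 siSFPQ libraries than in the other 18, and siCtrl replicate 1 is the high siCtrl point of miR-532-5p, miR-500a-3p, miR-362-5p, both miR-501 arms and miR-502-3p.

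SFPQ knockdown was set against siCtrl as the mean of its 2 siRNAs minus the control. Here 6 of the 10 members fell and 0 rose, beside 22.7% of all 626 miRNAs that fell (142) and 160 that rose. The members that fell were miR-188-5p, miR-501-5p, miR-660-5p, miR-362-5p, miR-532-5p and miR-362-3p. The median log2 fold change over the 10 members was -0.71, with a range of -1.38 to -0.24, beside a median of 0.02 over all 626. With miR-502-3p left out, 6 of 9 products fell and their median was -0.76. Calls rest on the quasi-likelihood test of edgeR, with p-values adjusted by Benjamini and Hochberg's method across all 626 miRNAs and a threshold of 0.05. In these bulk libraries less RNA per cell and fewer cells of a kind cannot be told apart.

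miR-660-5p had 174, 164 and 104 CPM with siSFPQ-2 and 130, 174 and 113 CPM with siSFPQ-3, against 309, 329.5 and 284 CPM with siCtrl. No siSFPQ library reached the siCtrl range. Its log2 fold change was -1.10 ± 0.17 (SE), with a 95% interval of -1.44 to -0.76 and an adjusted p of 9.75e-06 by edgeR's quasi-likelihood test. miR-188-5p, known in mice for turning bone marrow stromal cells from bone to fat formation with age, had 9.36, 8.21 and 2.56 CPM with siSFPQ-2 and 8.14, 7.45 and 4.65 CPM with siSFPQ-3, against 14.6, 17.9 and 20.9 CPM with siCtrl. These groups did not overlap either, and the 6 siSFPQ libraries averaged 37.8% of the siCtrl mean. For neither member was it counted how many of all tested miRNAs part from siCtrl in this way. The log2 fold change of miR-188-5p was -1.38 ± 0.29 (SE), with a 95% interval of -1.99 to -0.77 and an adjusted p of 0.000576 by edgeR's quasi-likelihood test. Without siCtrl replicate 1 the log2 fold changes were -1.14 for miR-660-5p and -1.54 for miR-188-5p, with edgeR adjusted p of 2.29e-05 and 0.000787. Both kept their call under all 18 alternatives that were run.

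miR-532-5p had 113, 148 and 119 CPM with siSFPQ-2 and 95.2, 141 and 96.4 CPM with siSFPQ-3, against 283, 175 and 142 CPM with siCtrl. The highest siCtrl value was that of replicate 1, and 5 of 6 siSFPQ libraries lay below every siCtrl library. Its log2 fold change was -0.76 ± 0.21 (SE; edgeR adjusted p = 0.00532). miR-362-5p, reported to target the deubiquitinase gene CYLD in human cancer cells, had 10.9, 10.1 and 14.3 CPM with siSFPQ-2 and 16.7, 15.8 and 9.82 CPM with siSFPQ-3, against 40.5, 22.6 and 13.2 CPM with siCtrl. The groups overlapped, since siCtrl replicate 3 lay inside the siSFPQ range. The log2 fold change came to -0.996 ± 0.27 (SE; edgeR adjusted p = 0.00394). miR-501-5p was counted 8 to 37 times per library in siCtrl and stood at 3.32, 4.10 and 3.66 CPM with siSFPQ-2 and 4.75, 1.75 and 4.14 CPM with siSFPQ-3, against 13.9, 5.31 and 4.40 CPM with siCtrl. That gave a log2 fold change of -1.14 ± 0.40 (SE; edgeR adjusted p = 0.0232). Without siCtrl replicate 1 these 3 members lost their calls, with log2 fold changes of -0.46 for miR-532-5p, -0.54 for miR-362-5p and -0.48 for miR-501-5p and edgeR adjusted p of 0.0618, 0.0877 and 0.393.

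miR-362-3p, which has been reported to target the adaptor gene BCAR1 (p130Cas) in human breast cancer cells, had 7.85, 4.10 and 7.32 CPM with siSFPQ-2 and 7.46, 6.58 and 5.95 CPM with siSFPQ-3, against 7.87, 12.95 and 10.5 CPM with siCtrl. The groups did not overlap, although their nearest libraries, at 7.85 CPM with siSFPQ-2 and 7.87 CPM with siCtrl, almost met. Here too the share of all tested miRNAs that part in this way was not counted. The log2 fold change was -0.67 ± 0.27 (SE; edgeR adjusted p = 0.0453), and the call was lost under 14 of 17 alternatives, among them without siCtrl replicate 2 (log2 fold change -0.46, edgeR adjusted p 0.302) and without siCtrl replicate 3 (-0.70, 0.0897).

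The other 4 members were not called. miR-532-3p had 3.17 to 11.4 CPM after SFPQ knockdown, against 5.98 to 9.74 CPM with siCtrl, with a log2 fold change of -0.43 ± 0.32 (SE; 95% interval -1.09 to 0.22). The log2 fold changes of the remaining 3 were -0.25 ± 0.26 for miR-500a-3p, -0.24 ± 0.27 for miR-501-3p and -0.25 ± 0.26 for miR-502-3p (± SE). Their edgeR adjusted p lay between 0.449 and 0.495. Their siSFPQ libraries fell inside the siCtrl range for miR-500a-3p (23.5 to 37.9 CPM, against 19.8 to 62.2 CPM), and miR-501-3p had 7.75 to 14.7 CPM with siSFPQ, against 8.81 to 18.7 CPM with siCtrl. Without siCtrl replicate 1 all 3 had log2 fold changes above 0, of 0.19, 0.07 and 0.19. miR-501-3p has been described as acting in dendrites of rat neurons, where it restrains the glutamate receptor subunit GluA1.

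Without siCtrl replicate 1, 3 members were called lower in place of 6, namely miR-188-5p, miR-660-5p and miR-362-3p, beside 21.2% of the 646 miRNAs then tested. The median over the members was -0.47, beside 0.13 over all miRNAs tested. Scaling to library totals moved both medians more than any other choice did. The difference between them moved less with scaling than without siCtrl replicate 1, where it was -0.60. Scaled to library totals without TMM, the median of all 626 miRNAs stood at 0.47 and that of the members at -0.27, a difference of -0.74, and only miR-188-5p (-0.93) and miR-660-5p (-0.65) were called lower. On that scale miR-532-3p, miR-500a-3p, miR-501-3p and miR-502-3p had log2 fold changes above 0, between 0.03 and 0.22. Scaled to the spike-in totals, the median of all miRNAs was 0.21, that of the members -0.51, and 4 members were called lower. Of all 626 miRNAs, 252 were called higher and 67 lower with library totals and 182 higher and 90 lower with spike-in totals, against 160 higher and 142 lower under TMM. Under TMM the difference between the members' median and that of all miRNAs was -0.73.

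**Figure D2:**
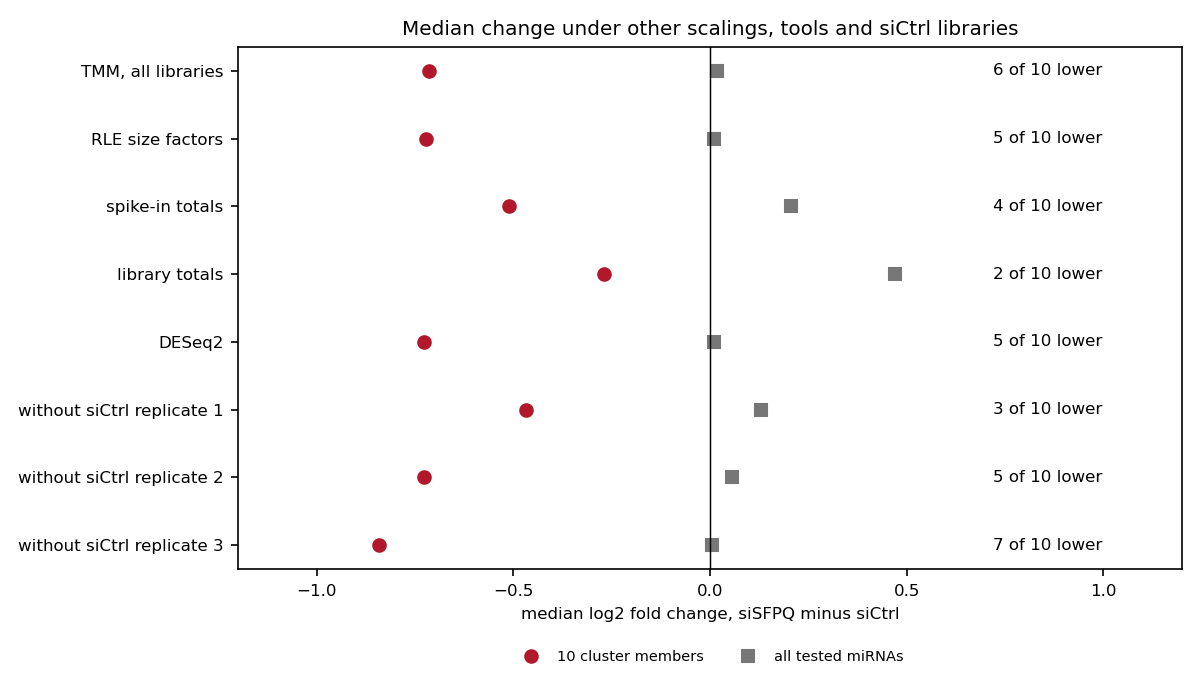
Median log2 fold change of siSFPQ against siCtrl over the 10 members (red circles) and over all tested miRNAs (grey squares), with the number of members called lower at the right, under 8 settings. The members' median stays left of the median of all miRNAs in each setting shown, while both shift right under library totals.

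The single siRNAs gave like values on the TMM scale. With siSFPQ-2, 4 of 10 members fell, beside 15.5% of all tested miRNAs that fell, and with siSFPQ-3, 5 of 10 fell, beside 21.7%. miR-188-5p, miR-362-5p, miR-532-5p and miR-660-5p were called lower with either siRNA. The log2 fold change of miR-660-5p was -1.06 ± 0.20 for siSFPQ-2 and -1.14 ± 0.20 for siSFPQ-3. For miR-188-5p it was -1.38 ± 0.36 under siSFPQ-2 and -1.38 ± 0.35 under siSFPQ-3. miR-501-5p was called with siSFPQ-3 (-1.17 ± 0.47; edgeR adjusted p = 0.0449) and not with siSFPQ-2 (-1.11 ± 0.48; 0.0734), and both comparisons share the siCtrl libraries. Leaving out siCtrl replicate 1 gave counts of 3 for siSFPQ-2, beside 17.6% of all miRNAs tested, and 2 for siSFPQ-3, beside 19.7%. Leaving out replicate 3 of siSFPQ-3 gave 3 for that siRNA, beside 14.9%. Spike-in totals set the siRNAs apart, with 4 members lower for siSFPQ-2 (beside 15% of all miRNAs) and 1 for siSFPQ-3 (7.19%). The members' medians there were -0.76 and -0.34. Set against each other, siSFPQ-3 and siSFPQ-2 differed in 0 members by edgeR's test, beside 0.639% of all miRNAs. At an unadjusted p under 0.05 there were 40 miRNAs, 1 of them a member, miR-532-3p. It had 3.17, 5.92 and 4.14 CPM with siSFPQ-3, against 7.54, 11.4 and 4.39 CPM with siSFPQ-2, a log2 difference of -0.82 ± 0.36 (SE; edgeR adjusted p = 0.66).

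The 6 siSFPQ libraries can also be set beside the 18 others, since they were apart from every one of them for 2 members. How many of all tested miRNAs part in the same way was not counted, so this is not shown to be particular to the members. miR-660-5p stood at 104 to 174 CPM in the siSFPQ libraries and at 279 to 448 CPM in the rest. miR-188-5p stood at 2.56 to 9.36 CPM in the siSFPQ libraries and at 14.2 to 31.0 CPM in the rest. The other 8 members overlapped, the nearest to a separation being miR-532-5p, with 95.2 to 148 CPM in the siSFPQ libraries and 142 to 350.3 CPM in the rest. For these 2 members the siSFPQ libraries were also apart with library totals and with spike-in totals. Per 1000 spike-in counts the gap of miR-660-5p was narrow, with at most 9.45 counts in the siSFPQ libraries and at least 9.72 counts in the rest. On the TMM scale siCtrl replicate 1 was inside the range of the other 17 libraries for both.

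NONO knockdown, set against the same siCtrl libraries, changed 0 of the 10 members by edgeR's test, beside 1.6% of all 626 miRNAs (6 higher and 4 lower). Before adjustment, 74 miRNAs and 0 members had p under 0.05, and DESeq2 called 13 miRNAs higher and 7 lower, with 0 members. The members' log2 fold changes ran from -0.41 for miR-362-3p to 0.29 for miR-532-5p, with a median of -0.08, beside 0.01 over all miRNAs. miR-660-5p had 279, 344 and 312 CPM with siNONO-3 and 363, 436 and 332 CPM with siNONO-4, against 309, 329.5 and 284 CPM with siCtrl. The groups overlapped, and the 95% interval of its log2 fold change was -0.20 to 0.51. miR-188-5p had 14.2 to 26.6 CPM with siNONO, against 14.6 to 20.9 CPM with siCtrl, and its 95% interval was -0.51 to 0.68. miR-532-5p had 193 to 323 CPM with siNONO, against 142 to 283 CPM with siCtrl, and its 95% interval was -0.16 to 0.74. The median over the members was 0.31 without siCtrl replicate 1, -0.39 without siCtrl replicate 3 and 0.043 with library totals.

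With the single siRNAs, siNONO-3 changed 0 members by edgeR's test, beside 2.56% of all miRNAs, and siNONO-4 changed 0, beside 0.958%. At an unadjusted p under 0.05 there were 64 miRNAs with siNONO-3 and 63 with siNONO-4, with 0 members in either. Between siNONO-4 and siNONO-3, edgeR called 0 of 626 miRNAs (0%), with 38 at an unadjusted p under 0.05 and 0 members among them. The members' median log2 difference was 0.28 between these siRNAs, with 9 of 10 above 0, beside a median of -0.04 over all miRNAs.

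SFPQ and NONO knockdown were compared with each other in the same model, a contrast that sets no siCtrl level against either. The siCtrl libraries still entered the filter, the TMM factors and the model's estimate of spread. In siSFPQ cells 6 of 10 members were lower than in siNONO cells and 0 higher, beside 26.8% of all 626 miRNAs that were lower (168, with 186 higher). With library totals 257 miRNAs were higher and 93 lower, with spike-in totals 228 higher and 95 lower, and 4 members were lower under either. miR-660-5p averaged 143 ± 31.4 CPM with siSFPQ and 344 ± 53.5 CPM with siNONO (SD, n = 6 each), a log2 difference of -1.26 ± 0.14 (SE; edgeR adjusted p = 8.24e-08). miR-188-5p averaged 6.73 ± 2.58 CPM with siSFPQ and 18.8 ± 4.13 CPM with siNONO, a log2 difference of -1.46 ± 0.25 (SE; edgeR adjusted p = 2.42e-05). miR-532-5p averaged 119 ± 22.1 CPM with siSFPQ and 245 ± 46.0 CPM with siNONO, a log2 difference of -1.04 ± 0.18 (SE; edgeR adjusted p = 2.83e-05). For these 3 members the groups did not overlap, with every siSFPQ library below every siNONO library. How many of all tested miRNAs part in the same way was not counted.

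miR-362-5p averaged 12.9 ± 3.05 CPM with siSFPQ and 24.8 ± 6.22 CPM with siNONO, with overlapping groups and a log2 difference of -0.93 ± 0.22 (SE; edgeR adjusted p = 0.00111). These 4 members, miR-660-5p, miR-188-5p, miR-532-5p and miR-362-5p, kept their calls under all alternatives run, library totals and spike-in totals included. The remaining calls were near the threshold. miR-501-5p differed by -0.81 ± 0.34 (log2 ± SE; edgeR adjusted p = 0.044) and lost its call under 12 of 20 alternatives, and miR-532-3p differed by -0.62 ± 0.25 (0.0381) and lost its call under 14 of 20. Left-out libraries of either knockdown ended these calls. Among them, leaving out siNONO-3 replicate 1 put miR-501-5p at -0.57 (edgeR adjusted p = 0.19), and leaving out siNONO-4 replicate 2 put miR-532-3p at -0.43 (0.149). miR-500a-3p, miR-362-3p, miR-501-3p and miR-502-3p differed by -0.16, -0.26, -0.13 and -0.16, with 95% intervals that held 0, and had values above 0 under library totals and spike-in totals.

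**Figure D3:**
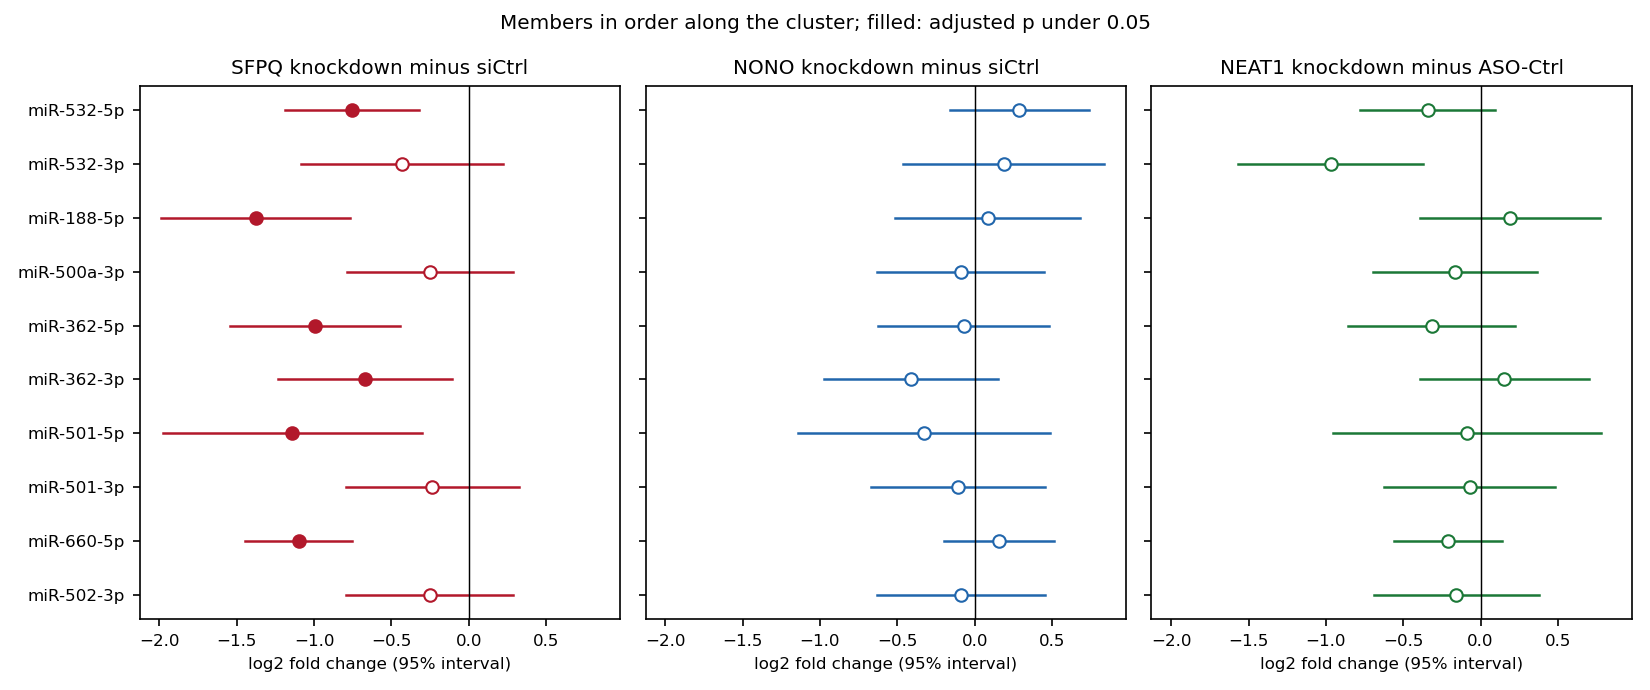
Log2 fold change of each member, in genomic order from top to bottom, for SFPQ, NONO and NEAT1 knockdown against their controls (points, with lines for the 95% interval and filled points for an edgeR adjusted p under 0.05). All 10 SFPQ points lie left of 0 and 6 are filled, while no NONO or NEAT1 point is filled.

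NEAT1 knockdown was set against ASO-Ctrl. edgeR called 0 of 626 miRNAs (0%) and so 0 members, with 19 miRNAs at an unadjusted p under 0.05, 1 of them a member, and DESeq2 called 0. The members' median log2 fold change was -0.16, beside -0.04 over all miRNAs. miR-660-5p had 408, 418 and 372 CPM with ASO-NEAT1-1047 and 380.4, 334 and 316 CPM with ASO-NEAT1-1473, against 416, 448 and 423.7 CPM with ASO-Ctrl, and its 95% interval was -0.56 to 0.14. Of the 6 knockdown libraries, 5 lay below every ASO-Ctrl library, and 1 lay inside their range. miR-188-5p had 15.5 to 31.0 CPM in the knockdown libraries, against 16.0 to 21.6 CPM with ASO-Ctrl, and its 95% interval was -0.39 to 0.77.

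The member with the unadjusted p under 0.05 was miR-532-3p. It had 6.94, 7.05 and 9.36 CPM with ASO-NEAT1-1047 and 5.24, 4.38 and 7.28 CPM with ASO-NEAT1-1473, against 10.0, 15.6 and 13.6 CPM with ASO-Ctrl. The groups did not overlap, and how many of all tested miRNAs part in this way was not counted. The log2 fold change of miR-532-3p was -0.97 ± 0.29 (SE), with an unadjusted p of 0.00276 and an adjusted p of 0.908 by edgeR's quasi-likelihood test, so the difference did not pass. Its partner arm miR-532-5p had 181 to 289.5 CPM in the knockdown libraries, against 234 to 350.3 CPM with ASO-Ctrl, with a log2 fold change of -0.34 ± 0.21 (SE).

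For single ASOs, edgeR called 0 members with ASO-NEAT1-1047 (0% of all miRNAs, with 5 at an unadjusted p under 0.05) and 0 with ASO-NEAT1-1473 (0%, with 42). miR-532-3p was the 1 member at an unadjusted p under 0.05 with either, with log2 fold changes of -0.74 ± 0.34 for ASO-NEAT1-1047 and -1.19 ± 0.36 for ASO-NEAT1-1473 (SE). Between ASO-NEAT1-1473 and ASO-NEAT1-1047, edgeR called 0 miRNAs (0%), with 15 at an unadjusted p under 0.05 and 0 members among them.

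The controls themselves were also compared. Between ASO-Ctrl and siCtrl, edgeR called 0 members, beside 0.479% of all miRNAs, with 44 miRNAs at an unadjusted p under 0.05. Among those was miR-660-5p, which averaged 429 ± 16.7 CPM with ASO-Ctrl and 307 ± 23.0 CPM with siCtrl (SD, n = 3 each), a log2 difference of 0.48 ± 0.20 (SE; edgeR adjusted p = 0.565). Its libraries did not overlap between the controls, and how many of all tested miRNAs part in this way was not counted. The members' median log2 difference was 0.12, beside 0.00 over all miRNAs, and the kind of oligonucleotide cannot be told apart from other differences between these control groups.

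Hairpins of which both arms are members allow a ratio of 5p over 3p within each library, which does not depend on how libraries are scaled. It was taken as the log2 of the 5p count over the 3p count with 0.5 added to each, and tested by an exact two-sided permutation test of 6 against 3 libraries, whose smallest possible p is 0.0238. Over 9 tests, 3 hairpins in 3 knockdowns, none passed after Benjamini-Hochberg adjustment. With 9 tests, a single ratio at the smallest p reaches an adjusted p of 0.214, so that none passed says little about whether the ratios differed. The 5p arm dominated in miR-532, where the log2 ratio averaged 4.36 ± 0.47 with siSFPQ, 4.75 ± 0.35 with siNONO and 4.57 ± 0.45 with siCtrl (SD). It was also the larger arm in miR-362, with 0.97 ± 0.32 with siSFPQ, 1.64 ± 0.69 with siNONO and 1.15 ± 1.05 with siCtrl. In miR-501 the 3p arm was the larger one, with -1.64 ± 0.76 with siSFPQ, -1.05 ± 0.73 with siNONO and -0.84 ± 0.37 with siCtrl.

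The largest shift relative to its spread was that of miR-532 under NEAT1 knockdown. Its log2 ratio averaged 5.03 ± 0.24 with the NEAT1 ASOs (SD, n = 6) and 4.40 ± 0.18 with ASO-Ctrl (n = 3). The groups did not overlap, and the exact permutation p was 0.0238, the smallest this design allows, with an adjusted p of 0.214. This ratio uses the same miR-532-3p counts as the fold change above, so the values are not separate evidence. For miR-501 under SFPQ knockdown the log2 ratio differed by -0.79 (exact permutation p = 0.143, adjusted p = 0.571).

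**Figure D4:**
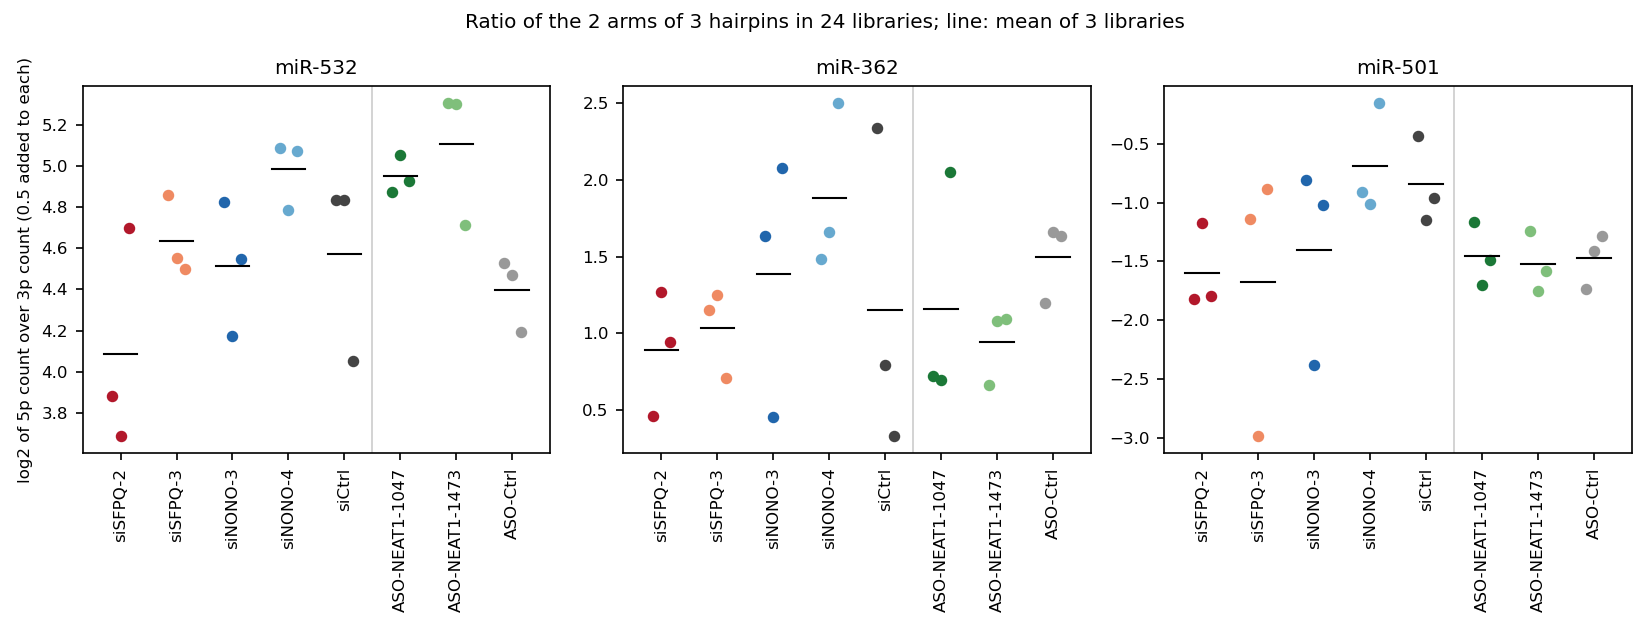
Log2 ratio of the 5p over the 3p count in each of 24 libraries for miR-532, miR-362 and miR-501, with a line at each group's mean. The 6 NEAT1 knockdown libraries of miR-532, from 4.71 to 5.31, lie above the 3 ASO-Ctrl libraries, from 4.19 to 4.53.

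The members varied together to different degrees. Over the 24 libraries, which share a depth and a scaling factor within each library, Pearson's r of log2 CPM was 0.89 for miR-188-5p with miR-660-5p, 0.87 for miR-532-5p with miR-660-5p and 0.83 for miR-532-5p with miR-362-5p. It was 0.80 for miR-500a-3p with miR-501-3p, which share a run of 13 bases at their 3′ ends and are alike before it. Whether these products share reads was not tested. The lowest r was -0.13, for miR-362-3p with miR-501-5p. The arms of a hairpin gave 0.71 for miR-532, 0.53 for miR-501 and 0.22 for miR-362. These are descriptions, and the 0.999 of miR-500a-3p with miR-502-3p repeats their shared reads. The 24 libraries include the siSFPQ groups, where members fell, so these r in part restate those falls. No r was taken within groups.

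Of the 386 miRNAs outside the window with a mean of at least 10 CPM, those whose log2 CPM followed the members' mean profile most closely over the 24 libraries were miR-99a-5p (r = 0.88), miR-100-5p (0.87), miR-361-5p (0.85), miR-1307-3p (0.84) and miR-128-3p (0.83). miR-99a-5p and miR-100-5p are near-identical, with mean levels of 827 and 825 CPM, and cannot be separated here. miR-361-5p, like the members, is encoded on the X chromosome. Under SFPQ knockdown 4 of the 5 fell by edgeR's test, with miR-99a-5p and miR-100-5p counted separately, beside 22.7% of all 626 miRNAs. The profile that picked them includes the siSFPQ libraries, where members fell. Their falls therefore follow in part from the choice and are no separate support. The log2 fold changes were -1.29 for miR-99a-5p and for miR-100-5p (adjusted p = 0.0013 for both), -0.79 for miR-1307-3p (0.00501) and -0.35 for miR-128-3p (0.0174), while miR-361-5p had -0.36 and was not called (0.108).

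Of the 6 other products of the window, 3 passed the filter on low counts and all 3 had values below 0 under SFPQ knockdown, while miR-188-3p, miR-500b-3p and miR-660-3p were not tested. miR-500a-5p and miR-500b-5p, which share their reads, fell by 0.62 on the log2 scale, with edgeR adjusted p of 0.0492 and 0.0499. Neither was called with a single siRNA, where miR-500a-5p had -0.53 for siSFPQ-2 (0.172) and -0.71 for siSFPQ-3 (0.0586). Without siCtrl replicate 1 miR-500a-5p had -0.34 (0.311), and with library totals -0.15 (0.673). Of the third product, miR-502-5p, the log2 fold change was -0.52 ± 0.44 (SE; edgeR adjusted p = 0.349). None of the 3 passed under NONO or NEAT1 knockdown. Elsewhere on the X chromosome, of 4 tested products of the miR-374 and miR-421 hairpins in the FTX gene, 3 fell under SFPQ knockdown, with a median log2 fold change of -1.32. Of 9 tested products of the miR-424 cluster 5 rose and 0 fell, with a median of 0.72. Beside these counts, 22.7% of all 626 miRNAs fell (142) and 160 rose under SFPQ knockdown. Both lists were chosen with results of these data known.

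Marker miRNAs of other cell types moved with SFPQ knockdown as well, under which 22.7% of all 626 miRNAs fell (142) and 160 rose. The summed CPM of the muscle markers miR-1-3p and miR-133a-3p was 111 to 193 with SFPQ knockdown, against 327 to 385 with siCtrl, and both fell by edgeR's test. The summed CPM of the vessel and stroma markers miR-126-3p, miR-143-3p and miR-145-5p was 644 to 764 with siSFPQ, against 936 to 1016 with siCtrl, and 2 of 3 fell. The third, miR-145-5p, was not called. It averaged 4.37 CPM with siSFPQ-2 and 3.93 CPM with siSFPQ-3, against 2.47 CPM with siCtrl. For the blood markers found, miR-142-3p, miR-142-5p and miR-223-3p, the summed CPM was 27.1 to 65.7 with siSFPQ, against 49.5 to 104 with siCtrl, and of the 2 tested 0 were called. Of the neuroendocrine markers, miR-7-5p and miR-9-5p fell and miR-375-3p rose, and the summed CPM was 58212 to 79163 with siSFPQ, against 98804 to 112786 with siCtrl. The part of these shifts in the members' values was not tested.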

How the data were processed

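The deposited tables hold raw counts for each miRNA locus and spike-in, which the authors made with featureCounts (Subread 2.0.3), per the file headers. Also named, per the submitters' processing notes and with no order or parameters, are hg38, UMI-tools 1.1.1, Bowtie 1.3.0, Trimmomatic 0.39 and DESeq2 1.38.1. The sources used here do not give whether reads with 1 molecular identifier were collapsed. The 2883 loci belong to 2652 mature miRNAs, and for the 169 with more than 1 locus the locus with the largest total was kept, which touches no member. Names came from RefSeq mature positions within 3 bases (2364 matched). The name miR-660-5p was taken from the list of members, at a position in the 5′ part of MIR660. Spike-ins, at 2.2% to 4.47% of counts, were left out of library sizes.

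Counts were tested in R 4.3.3 with edgeR 4.0.16 and limma 3.58.1. With a minimum count of 10, filterByExpr left 626 miRNAs holding 99.97% of the counts. A single model over the 24 libraries, with TMM factors and 1 coefficient for each group, had 16 residual degrees of freedom and a biological coefficient of variation of 0.250. The p-values of its quasi-likelihood test were adjusted by the Benjamini-Hochberg method across the 626. CPM use the TMM-scaled library size, and correlations use log2 CPM with a prior count of 2. The SE of a log2 fold change is its size over the root of the F statistic. The arm-ratio tests used scipy 1.17.1, and the fitting steps were tested on simulated data.

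Groups and replicate numbers come from the sample titles. The labels do not say that replicates were separate cultures, so p-values measure the spread between these libraries, which may be technical. No replicate pair agreed within sampling noise. Of 27 same-numbered pairs across compared groups, 14 had correlated deviations above 0.1, in a range of -0.288 to 0.619, which leaves pairing by number unsettled. The main model did not pair the libraries, and a replicate block was run as an alternative. Only ASO-NEAT1-1047 with ASO-NEAT1-1473 had all 3 pairs above 0.1 (0.376 to 0.543). Between siNONO-3 and siNONO-4 (0.073 to 0.507) and between siSFPQ-2 and siSFPQ-3 (0.044 to 0.531), 2 of 3 were above it. For siSFPQ-2 and siNONO-4 with siCtrl, 0 of 3 were. All members were named, with the other products of the window, miRNAs sharing a seed, the 5 most alike and the X-linked lists. The members, lists and tests were chosen with earlier results of these data known. Alternatives were size factors by RLE, library totals or spike-in totals, a filter at a mean of 10 CPM or none, DESeq2 1.42.0, only the groups compared, a replicate block, every locus as its own entry, each library left out, and for arm ratios an added count of 1. Levels on other scalings, the 9 products without miR-502-3p, the alternatives for single SFPQ siRNAs, SFPQ minus NONO and the other window products, and the block between NEAT1 ASOs were added after seeing the data.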

Additional observations from a re-analysis of the deposited data

Results flagged for a closer look

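For 6 members the log2 change differed between SFPQ and NONO knockdown by a contrast of the same model (quasi-likelihood test of edgeR, p-values adjusted across 626 miRNAs). The differences, SFPQ minus NONO, were -1.46 for miR-188-5p, -1.26 for miR-660-5p, -1.04 for miR-532-5p, -0.93 for miR-362-5p, -0.81 for miR-501-5p and -0.62 for miR-532-3p. Those of miR-501-5p and miR-532-3p were lost when single siSFPQ or siNONO libraries were left out.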

How the results depend on the processing

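All values are log2 fold changes unless given as counts. With library totals in place of TMM factors, 2 members were called lower under SFPQ knockdown, beside 10.7% of all miRNAs, and the members' median was -0.27. Signs turned there for miR-532-3p (0.029), miR-500a-3p (0.22), miR-501-3p (0.21) and miR-502-3p (0.21) under SFPQ knockdown. They also turned for miR-500a-3p (0.034), miR-362-5p (0.053), miR-501-3p (0.012) and miR-502-3p (0.034) under NONO knockdown. For SFPQ minus NONO they turned for miR-500a-3p (0.18), miR-362-3p (0.067), miR-501-3p (0.20) and miR-502-3p (0.18), and with spike-in totals for the same 4 (0.11, 0.034, 0.16 and 0.11). For SFPQ minus NONO miR-501-3p also turned with every locus kept (0.0047). Under NONO knockdown miR-188-5p turned with spike-in totals (-0.015) and with a mean of at least 10 CPM (-0.031). None of these results was called before or after the turn.

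With each library left out in turn, 3 to 7 members were called lower under SFPQ knockdown, beside 18% to 22.7% of all miRNAs tested. The fewest members were called without siCtrl replicate 1. Over all the libraries left out, miR-500a-3p ran from -0.59 to 0.19, miR-501-3p from -0.47 to 0.066 and miR-502-3p from -0.60 to 0.19. Without siCtrl replicate 3 miR-500a-3p and miR-502-3p were called lower. Under NONO knockdown the median ran from -0.39 to 0.31, with miR-532-3p from -0.039 to 0.31, miR-188-5p from -0.10 to 0.15, miR-500a-3p from -0.45 to 0.33, miR-362-5p from -0.41 to 0.37, miR-501-5p from -0.62 to 0.32, miR-501-3p from -0.36 to 0.17 and miR-502-3p from -0.45 to 0.33. Under NEAT1 knockdown miR-501-5p ran from -0.26 to 0.063 and miR-501-3p from -0.21 to 0.033. The arm ratio differences that turned were miR-532 under NONO (-0.085 to 0.31), miR-362 under SFPQ (-0.60 to 0.40), miR-501 under NONO (-0.38 to 0.065) and miR-501 under NEAT1 (-0.14 to 0.082). The cause of these shifts was not tested.

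With the replicate block, 6 members were called lower under SFPQ knockdown with a median of -0.72, beside 24% of all miRNAs. The block gave 0 members under NONO knockdown, where 12 miRNAs were called higher and 12 lower, and 0 under NEAT1 knockdown, where 0 miRNAs were called. In every alternative run, 0 members were called under NONO or NEAT1 knockdown. With single siRNAs the block gave 5 members for siSFPQ-2 (beside 18.1% of all miRNAs called lower) and 6 for siSFPQ-3 (23.2%). Only the groups compared left 1 member called lower for siSFPQ-2 (beside 6.36% of all miRNAs) and 2 for siSFPQ-3 (11.1%). Library totals left 2 for siSFPQ-2 (7.51%) and 1 for siSFPQ-3 (8.15%). Spike-in totals left 4 for siSFPQ-2 (15%), with a members' median of -0.76, and 1 for siSFPQ-3 (7.19%), with a members' median of -0.34. Between ASO-NEAT1-1473 and ASO-NEAT1-1047 the block gave 0 calls by edgeR among 626 miRNAs, with 29 at an unadjusted p under 0.05 and 0 members among them. Depth limits the low members: miR-501-5p had 4 to 37 counts per library.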
